A study of Mus musculus with 8 samples.

Results

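The genes described here are the mouse topoisomerases Top1, Top2a, Top2b, Top3a and Top3b with Tdp1 and Tdp2, the phosphodiesterases that cut a trapped topoisomerase off DNA. They were chosen as all non-control probes of the arrays whose gene name is 1 of these 7 symbols, an older name of Tdp2 included. This gave 11 probes of the 39429 on the array, for all 7 genes. No probe carried an older name, and 0 further probes carried a member's accession under another name. A probe was tested where its signal was well above background, the scanner software's own call, on at least 4 of the 8 arrays. Of the 11 probes 9 passed, standing for 5 of the 7 genes. The single Top2a probe and the single Tdp2 probe did not pass.

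The arrays measured RNA from lower jejunal crypts, the bottom of the intestinal glands with their stem cells and Paneth cells, cut from fixed sections by laser capture, with 1 array per mouse. The 4 fasted mice went without food for 24 h and then received 80 mg/kg etoposide into the tail vein, and the 4 fed mice received the same dose without the fast. Tissue was taken 3 h after the injection in both groups. By the labels 2 mice of each group were male and 2 female, all were 4 to 6 weeks old, and all 8 carried the Lgr5EGFP-IRES-CreERT2/+ allele, an EGFP and Cre knock-in at Lgr5, the marker gene of crypt base stem cells. Moistened food was given to all mice after the injection, so fasting cannot be told apart from the refeeding that followed it. Mice without etoposide were not part of the series as analysed here, and the values therefore compare feeding states after the drug and not the drug with its absence.

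Topoisomerases relieve the twisting and tangling of DNA by cutting it, passing DNA through or around the cut and sealing it again. During the cut the enzyme is joined to the DNA end through a tyrosine. Type I enzymes cut 1 strand and type II enzymes cut both strands. Etoposide is a poison of the type II enzymes: it holds them in the joined state, so that a break remains with protein on its ends. TDP2 removes the trapped type II enzyme from the 5′ end of the DNA, and TDP1 removes trapped TOP1 from the 3′ end.

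The fasted arrays had 53.6% to 65.6% of their probes well above background, and the fed arrays 53.2% to 62.8%. The lowest correlation across probes between any pair of arrays, 0.904, was that of fasted replicate 3 with fed replicate 4. The array of fasted replicate 3 stood apart, as its highest correlation with another array was 0.950, against 0.964 or more for the others. It was also the only array scanned on the later day. Fed replicate 4 was labelled female, yet the female transcript Xist was not well above background on it and the Y-linked Eif2s3y was, with log2 values of -6.01 and -1.39 relative to the array's 75th percentile. On fed replicate 1, labelled male, neither transcript was well above background, with Xist at -4.93 and Eif2s3y at -2.84. None of the 8 arrays had Lgr5 well above background, whereas Olfm4, another crypt base stem cell marker, was on all 8. The captured tissue was a mixture, in which fewer cells of a type and less RNA per cell cannot be told apart.

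Probe sequences are given here for the 2 undetected genes, for Top3a, whose probes differed in direction, and for the brighter probe of Top3b, 5′ to 3′ as in the deposited files, to show which stretch each value was read from. The Top2a probe, which lies at chr11:98855522-98855581 on the minus strand of mm9, is given in full. For Tdp2, both Top3a probes and 1 Top3b probe the last 30 bases are given. Capitals mark bases in 16-base words that occur in another probe of the array on either strand.
Top2a probe A_55_P1995205: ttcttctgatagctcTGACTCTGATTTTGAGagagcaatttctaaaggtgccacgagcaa
Tdp2 probe A_51_P169047: ttatttgctgggaactgacaaagttcatct
Top3a probe A_55_P1953578: cacccatagctcatgtgccttaataaaaaa
Top3a probe A_55_P2122285: aagagtagttgctgtgcccagcactgtaat
Top3b probe A_55_P1959758: ctgaaaccattaaaatgctttttattttgt

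All 11 probes are 60 bases long and match 60 contiguous bases of the genome by the positions in the files. The Top3b probe A_55_P1959753 shared such words with 14 other probes, of 14 other genes. A share of 21.5% of all probes on the array held a word of this kind. The Top2a probe and the Top1 probe each shared a single word with 1 other probe. The remaining 8 member probes shared none.

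No member was called different between fasted and fed crypts. Of the 9 tested probes 0 passed the threshold of 0.05 on the Benjamini-Hochberg adjusted p of limma, and among all 24459 probes tested the percentage called was 0%. In the gene fit, in which the brightest kept probe stood for a gene, 0 of 5 members were called against 0% of 19528 genes. At an unadjusted p under 0.05 limma found 1 of the 9 member probes, a Top3a probe, against 6.38% of all probes, and 1 of the 5 genes against 5.95% of all genes. No member probe had fasted and fed values that did not overlap, a pattern that 5.08% of all probes showed. The median fasted minus fed difference was -0.06 on the log2 scale over all genes and -0.03 over all probes.

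**Figure D1:**
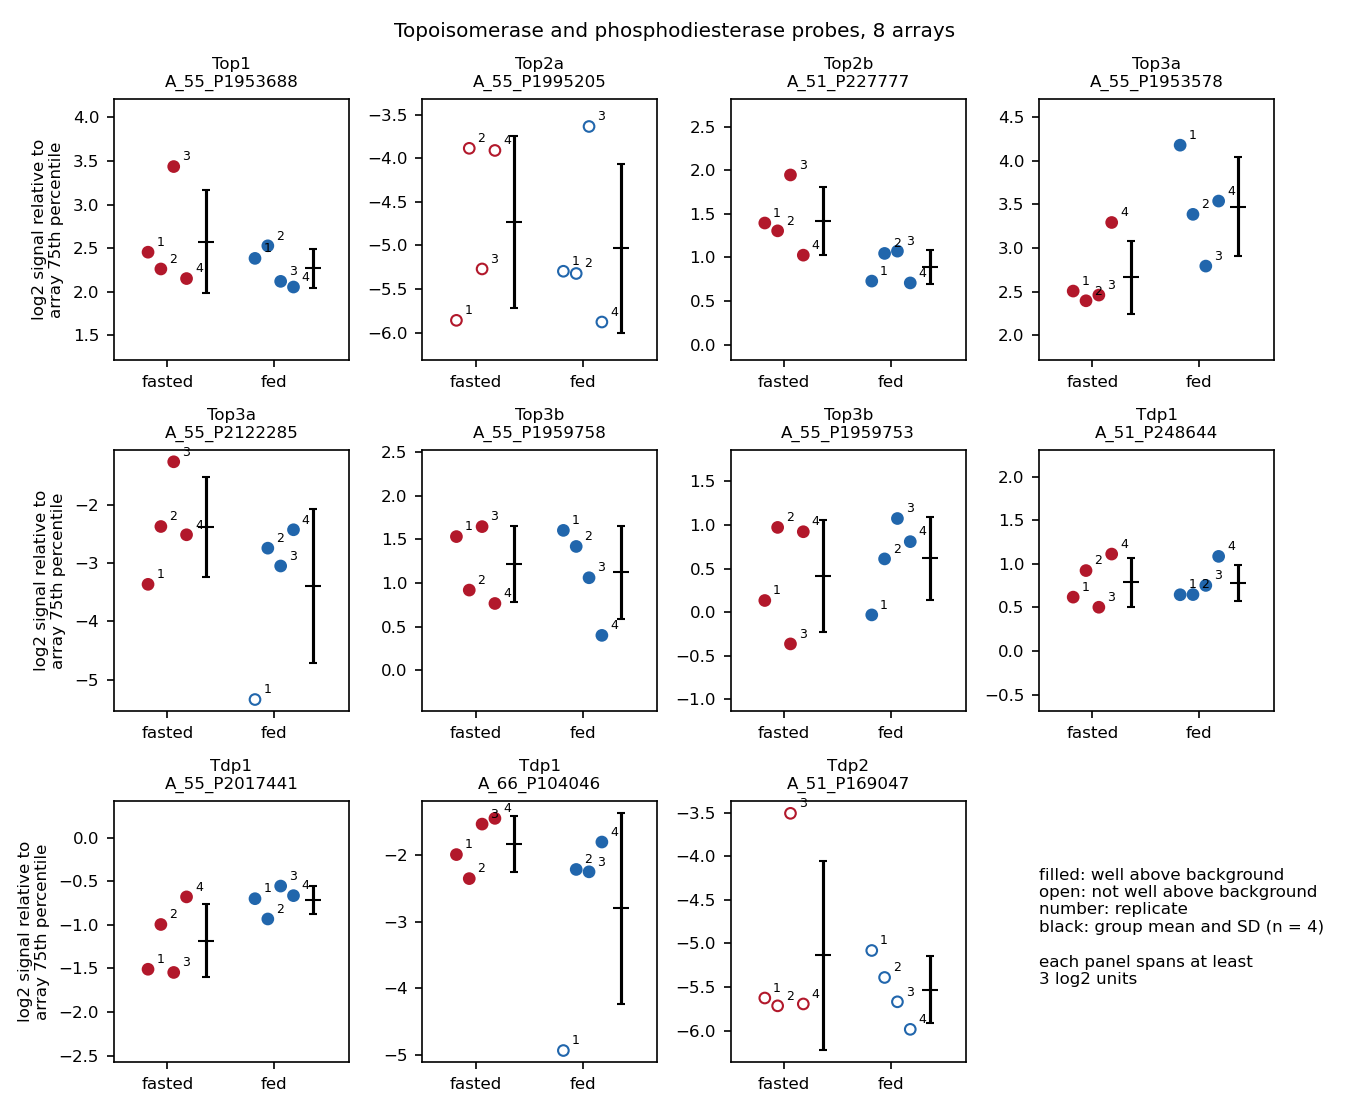
Each panel plots 1 probe's log2 signal relative to the array's 75th percentile, with the 4 fasted arrays left of the 4 fed arrays, black bars for each group's mean ± SD, filled points where the probe was well above background and open points where it was not. The Top2a and Tdp2 panels hold only open points, and in all panels the fasted and fed values overlap.

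Top2a, the type II topoisomerase of dividing cells and a target of etoposide, could not be measured on these arrays. Its probe was well above background on 0 of 4 fasted and 0 of 4 fed arrays. The processed signal was 30.1, 129, 34.0 and 109 on fasted arrays 1 to 4, against 28.5, 30.2, 130 and 28.2 on fed arrays 1 to 4. By the scanner's weaker call, a signal significantly above background, it was present on fasted replicates 2 and 4 and on fed replicate 3, and these 3 arrays held the high values. The log2 values relative to the 75th percentile were -5.86, -3.89, -5.27 and -3.91 on the fasted arrays and -5.30, -5.32, -3.64 and -5.88 on the fed arrays. Both groups thus held high and low arrays, and no fold is given because neither group was measured.

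Top2b, the type II topoisomerase that non-dividing cells also make, was well above background on all 8 arrays. Its probe A_51_P227777, at chr14:17263157-17263216 on the plus strand, had log2 values of 1.39, 1.30, 1.95 and 1.03 on the fasted arrays and 0.73, 1.05, 1.07 and 0.71 on the fed arrays. Of the fasted values 3 lay above all 4 fed values, and fasted replicate 4 lay within the fed range. The group means were 1.42 ± 0.39 in fasted crypts and 0.89 ± 0.20 in fed ones (SD, n = 4 each), a 1.44-fold difference. The log2 difference of 0.53 (SE 0.25, 95% interval -0.03 to 1.09) did not pass the test, with an adjusted p of 0.788 over all genes by limma. A difference of at least this size in either direction was found for 27.3% of all genes.

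The Top2b difference had the same sign on each of the 3 slides shared by both groups, at 0.67, 0.23 and 0.32 on the log2 scale. Without fasted replicate 3, which held the highest value, it was 0.33 (limma adjusted p = 0.651), and without fed replicate 4 it was 0.44 (limma adjusted p = 0.967). With fed replicate 4 taken as male it was 0.48. With the slide as a fixed block it was 0.41, with an adjusted p of 0.380 by limma.

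Top1, the nuclear type I topoisomerase that relaxes DNA ahead of polymerases, was also well above background on all 8 arrays. Its probe A_55_P1953688, at chr2:160548391-160548450 on the plus strand, had log2 values of 2.45, 2.26, 3.44 and 2.15 on the fasted arrays and 2.38, 2.53, 2.12 and 2.05 on the fed arrays. Fasted replicate 3 was high and the other 3 fasted arrays lay within the fed range. The means were 2.58 ± 0.59 in fasted crypts and 2.27 ± 0.22 in fed ones (SD, n = 4 each). The log2 difference was 0.30 (SE 0.30, 95% interval -0.39 to 1.00), with a limma adjusted p of 0.811 over all genes.

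Fasted replicate 3 decided the Top1 value: without it the difference was -0.03, with a limma adjusted p of 0.958. Within the 3 shared slides, none of which held that array, the differences were 0.07, 0.14 and 0.10. Scaling mattered too. Before scaling, the processed Top1 signal was 9578, 9119, 14213 and 7257 on the fasted arrays, against 5844, 6972, 7048 and 6892 on the fed arrays, and these groups did not overlap. The 75th percentile of each array, by which the signals were then scaled, ran from 10.36 to 10.89 on the fasted and from 10.13 to 10.70 on the fed arrays on the log2 scale. Without scaling the Top1 difference was 0.55, with a limma adjusted p of 0.494. The median difference over all genes was then 0.19, against -0.06 after scaling. The share of all probes whose unscaled values did not overlap was not counted.

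Top3a, a type IA topoisomerase that works with BLM and the RMI proteins on joined DNA molecules, was the member with the smallest p, and its 2 probes went opposite ways. The probe A_55_P1953578, at chr11:60553572-60553631 on the minus strand, was the brighter and stood for the gene. Its log2 values were 2.51, 2.40, 2.46 and 3.29 on the fasted arrays and 4.18, 3.39, 2.79 and 3.54 on the fed arrays. Fasted replicates 1 to 3 lay below all fed arrays, and fasted replicate 4 lay within the fed range. The means were 2.66 ± 0.42 in fasted crypts and 3.47 ± 0.57 in fed ones (SD, n = 4 each). The log2 difference was -0.81 (SE 0.33, 95% interval -1.57 to -0.06), a 1.75-fold lower fasted mean. Its unadjusted p of 0.0381 in the probe fit did not survive adjustment by limma, at 0.765 over all probes and 0.788 over all genes. A difference of at least this size in either direction was found for 12.8% of all genes.

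On the 3 shared slides this Top3a probe was lower in the fasted array each time, by differences of -1.67, -0.40 and -0.25. Without fasted replicate 3 its difference was -0.75 (limma adjusted p = 0.598), and with fed replicate 4 taken as male it was -0.77 (limma adjusted p = 0.859). It was smaller without fed replicate 1, at -0.55 (limma adjusted p = 0.802), and with array weights, at -0.41 (limma adjusted p = 0.692).

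The second Top3a probe, A_55_P2122285, designed on the transcript AK164443 and placed at chr11:60555736-60555795, had log2 values of -3.36, -2.37, -1.25 and -2.51 on the fasted arrays and -5.34, -2.74, -3.05 and -2.42 on the fed arrays. It was well above background on 4 of 4 fasted and 3 of 4 fed arrays, fed replicate 1 being the exception. The means were -2.37 ± 0.87 in fasted crypts and -3.39 ± 1.33 in fed ones (SD, n = 4 each), a log2 difference of 1.02 (SE 0.63, limma adjusted p = 0.767 over all probes). Without fed replicate 1 that difference was 0.46. With the mean of the kept probes standing for the gene, the Top3a difference was 0.10 in place of -0.81. Whether the probes differed from each other was not tested.

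Top3b, the type IA topoisomerase that acts on RNA as well as DNA together with TDRD3, showed no difference beyond the spread between arrays with either probe. The probe A_55_P1959758, at chr16:16893009-16893068 on the plus strand, had log2 values of 1.53, 0.92, 1.65 and 0.77 on the fasted arrays and 1.60, 1.42, 1.06 and 0.40 on the fed arrays. The groups overlapped over most of their range, with means of 1.22 ± 0.44 in fasted crypts and 1.12 ± 0.53 in fed ones (SD, n = 4 each). The log2 difference was 0.10 (SE 0.30, limma adjusted p = 0.944 over all genes), and it was -0.16 without fasted replicate 3. The probe with the shared words, A_55_P1959753, gave -0.20 (SE 0.38, limma adjusted p = 0.896 over all probes). Its means were 0.42 ± 0.65 in fasted crypts and 0.62 ± 0.47 in fed ones (SD, n = 4 each), and its lowest values were -0.36 on fasted replicate 3 and -0.03 on fed replicate 1.

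**Figure D2:**
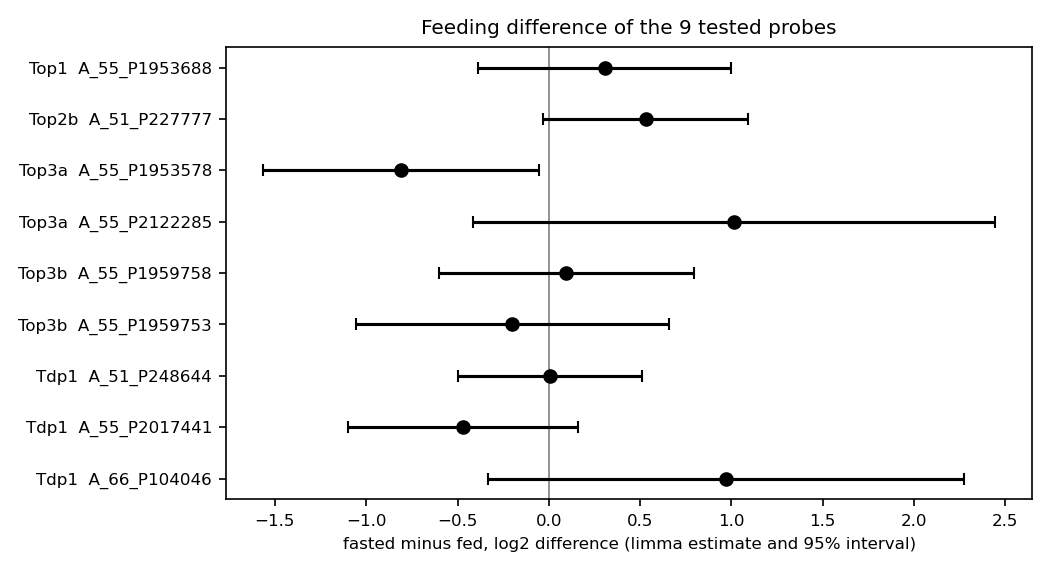
The plot gives the fasted minus fed log2 difference of the 9 tested probes as a point with its 95% interval from limma. All intervals include 0 except that of the Top3a probe A_55_P1953578, at -1.57 to -0.06 before any adjustment, and the second Top3a probe lies on the other side of 0.

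Tdp1, which frees the 3′ end of DNA from trapped TOP1, had 3 probes. The probe A_51_P248644, at chr12:101193217-101193276 on the plus strand, was the brightest and had log2 values of 0.62, 0.92, 0.50 and 1.11 on the fasted arrays and 0.65, 0.65, 0.75 and 1.09 on the fed arrays. Both groups covered nearly the same range, with means of 0.79 ± 0.28 in fasted crypts and 0.78 ± 0.21 in fed ones (SD, n = 4 each). The log2 difference was 0.01 (SE 0.22, limma adjusted p = 0.995 over all genes), and its 95% interval of -0.50 to 0.51 leaves room for a change of either sign.

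The other 2 Tdp1 probes pointed in opposite directions and did not pass the test. The probe A_55_P2017441 had log2 values between -1.55 and -0.68 on the fasted arrays and between -0.93 and -0.55 on the fed arrays, with fasted replicates 1 to 3 below all fed arrays. This probe, at chr12:101173351-101173410, averaged -1.18 ± 0.42 in fasted crypts and -0.71 ± 0.16 in fed ones (SD, n = 4 each), a difference of -0.47 (SE 0.27, limma adjusted p = 0.765 over all probes), which was -0.29 without fasted replicate 3 and -0.26 with array weights. The probe A_66_P104046, at chr12:101123292-101123351, averaged -1.83 ± 0.42 in fasted crypts and -2.80 ± 1.44 in fed ones (SD, n = 4 each), a difference of 0.97 (SE 0.57, limma adjusted p = 0.765 over all probes). Fed replicate 1 was at -4.93 and not well above background, and without it the difference was 0.34. The other 3 fed arrays lay between -2.25 and -1.80, and the fasted arrays between -2.35 and -1.45.

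Tdp2, the enzyme that acts on the 5′ adducts left by type II topoisomerases, was, like Top2a, not measured: its probe, at chr13:24933764-24933823 on the plus strand, was well above background on 0 of 4 fasted and 0 of 4 fed arrays. The processed signal was 35.4, 36.1, 115 and 31.5 on the fasted arrays, against 33.1, 28.8, 31.8 and 26.2 on the fed arrays. Only fasted replicate 3 was significantly above background. The log2 values were -5.63, -5.72, -3.51 and -5.70 on the fasted arrays and -5.08, -5.39, -5.67 and -5.99 on the fed arrays, and no fold is given. The dividing-cell target of etoposide and the enzyme that removes the trapped protein were therefore the 2 members left unmeasured. Top2b, the other type II enzyme among the members, was measured.

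**Figure D3:**
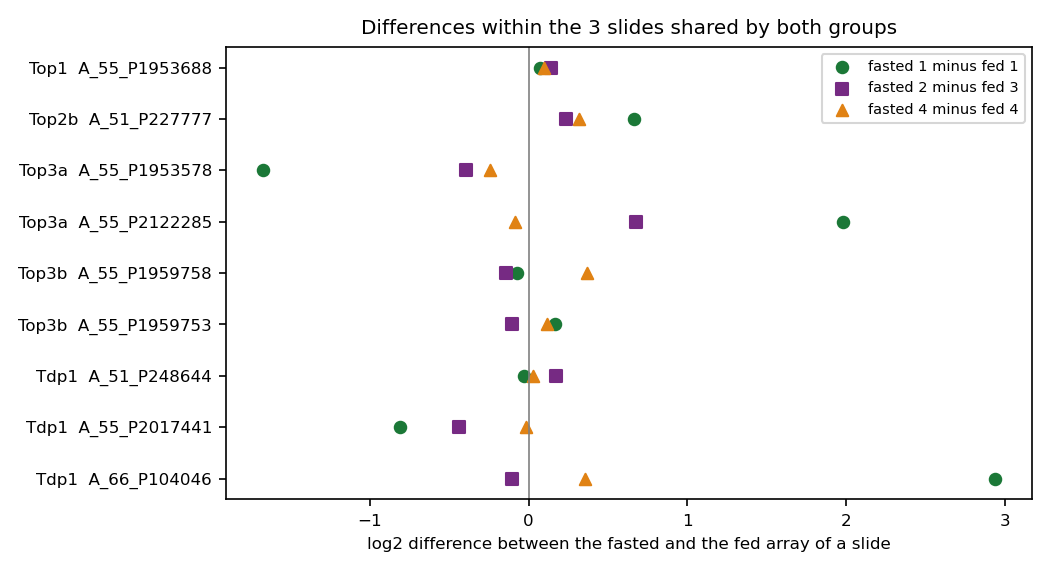
For each of the 9 tested probes, 3 points give the log2 difference between the fasted and the fed array that shared a slide. Top2b (0.67, 0.23 and 0.32) and the Top3a probe A_55_P1953578 (-1.67, -0.40 and -0.25) keep 1 sign on all 3 slides, as do Top1 and the Tdp1 probe A_55_P2017441 with values nearer 0 on at least 1 slide, and the widest differences, 2.94 for the Tdp1 probe A_66_P104046 and 1.98 for the Top3a probe A_55_P2122285, come from the slide with fasted replicate 1 and fed replicate 1.

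The fasted array of the first slide pair had 60.9% of its probes well above background, against 53.2% on the fed array of that pair. In the second pair the shares were 65.6% on the fasted and 62.2% on the fed array, and in the third 63.9% on the fasted and 62.8% on the fed array. With that share added as a covariate, Top2b was at 0.63 (limma adjusted p = 0.104) and Top1 at 0.52 (limma adjusted p = 0.106). The lower p was not particular to them. With this covariate limma put 5491 of 19528 genes at an unadjusted p under 0.05, against 1161 without it, and called 0. Markers of other cells in the capture moved with the groups as well. All 13 absorptive enterocyte markers were higher in fasted crypts, with a median log2 difference of 1.30 and a summed linear level relative to the 75th percentile of 71.2 to 166 on the fasted and 31.5 to 65.9 on the fed arrays. The 7 Paneth cell markers measured were all lower on the fasted side (median -0.44), with a summed level of 320.2 to 397.4 on the fasted and 419.8 to 575.4 on the fed arrays. The 5 goblet cell markers were also lower, with a median of -0.20. None of these markers passed the test, and their part in the member values was not tested.

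The feeding difference of the members was also compared between labelled sexes. The interaction, the difference in males minus that in females, was -1.04 for Top3a (SE 0.59), -0.80 for Top1 (SE 0.58), -0.76 for Top3b (SE 0.59), -0.13 for Top2b (SE 0.52) and 0.24 for Tdp1 (SE 0.46). The limma adjusted p ran from 0.758 to 0.931, so the difference was not called for any of the 5 measured members. With 1 female label contradicted by its own transcripts, the term does not cleanly separate the sexes.

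Other enzymes that take trapped topoisomerases off DNA or repair the breaks left behind were mostly higher in fasted crypts, without passing the test. Of the 12 genes listed 9 were measured, 8 were higher and 1 was lower, against 44.5% of all genes higher. None was called, and the median difference was 0.49 beside -0.06 over all genes. Among the 8 genes well above background on all 8 arrays 7 were higher and 1 was lower, with a median of 0.40. Parp1, which senses strand breaks, averaged -0.33 ± 0.55 in fasted crypts and -1.09 ± 0.24 in fed ones (SD, n = 4 each), a log2 difference of 0.76 (SE 0.31). Lig3, the DNA ligase that partners XRCC1, differed by 0.73 (SE 0.35). The limma adjusted p was 0.788 at the lowest over the list. Without fasted replicate 3 the median was 0.35, and without that array and fed replicate 4 it was 0.20, with 6 genes higher and 3 lower. Within the 3 slide pairs the median was 0.52, 0.26 and 0.09.

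The partners and relatives of the topoisomerases had no common direction. Of 10 genes 6 were measured, with 3 higher and 3 lower, none called and a median of 0.05. Among the 4 genes well above background on all 8 arrays 1 was higher and 3 were lower, with a median of -0.28. The 2 RMI proteins, which work with TOP3A and BLM, went opposite ways. Rmi2 had log2 values of -1.68, -0.50, -2.76 and -0.59 on the fasted arrays and 0.20, -0.43, -0.36 and 0.01 on the fed arrays, fasted replicate 3 being the lowest. It averaged -1.38 ± 1.06 in fasted crypts and -0.14 ± 0.30 in fed ones (SD, n = 4 each), a log2 difference of -1.24 (SE 0.50), and its groups did not overlap, as was the case for 4.93% of all genes. Rmi1 differed by 0.95 (SE 0.40) and was well above background on 4 of 4 fasted and 2 of 4 fed arrays. Topors, a ubiquitin and SUMO ligase named for binding TOP1, differed by 0.72 (SE 0.49), and the mitochondrial topoisomerase Top1mt by 0.32 (SE 0.23).

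Cohesin, condensin and CTCF, the loop-forming and chromosome-compacting proteins beside which type II topoisomerases act, were measured for 13 of 14 genes. Of these 9 were higher and 4 lower in fasted crypts, none was called, and the median was 0.23. Without fasted replicate 1 the list had 7 higher and 6 lower genes and a median of 0.04, without fasted replicate 3 the median was 0.11, and without fed replicate 4 it was 0.09. The cohesin subunit Smc3 differed by 0.74 (SE 0.31), the condensin II subunit Ncaph2 by 0.34 (SE 0.22) and the condensin II subunit Ncapg2 by -0.72 (SE 0.51). The lowest limma adjusted p in the list was 0.788.

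Genes made in G2 and mitosis, the window in which Top2a is made, were measured for 9 of 16. Ccna2, Bub1, Bub1b, Aurkb and Cenpf were, like Top2a, well above background on none of the 8 arrays. Mki67, Birc5, Ube2c, Cdk1, Ccnb1, Plk1, Cenpe and Aurka were well above background on all 8. Of the 9 measured 2 were higher and 7 lower in fasted crypts, none was called, and the median was -0.20. The mitotic kinase gene Cdk1 had a difference of -0.62 (SE 0.54), which rested on fasted replicate 3 at -3.69. Aurka, another mitotic kinase, differed by -0.47 (SE 0.38), and Ube2c, a ubiquitin-conjugating enzyme of mitotic exit, by -0.42 (SE 0.40). The direction depended on single arrays and on the slides. Without fasted replicate 3 the list had 4 higher and 5 lower genes, with a median of -0.0020, and without fasted replicate 1 it had 0 higher and 9 lower, with a median of -0.48. Without fed replicate 3 the median was -0.03. With the slide as a fixed block 5 genes were higher and 4 lower, and the median was 0.11.

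**Figure D4:**
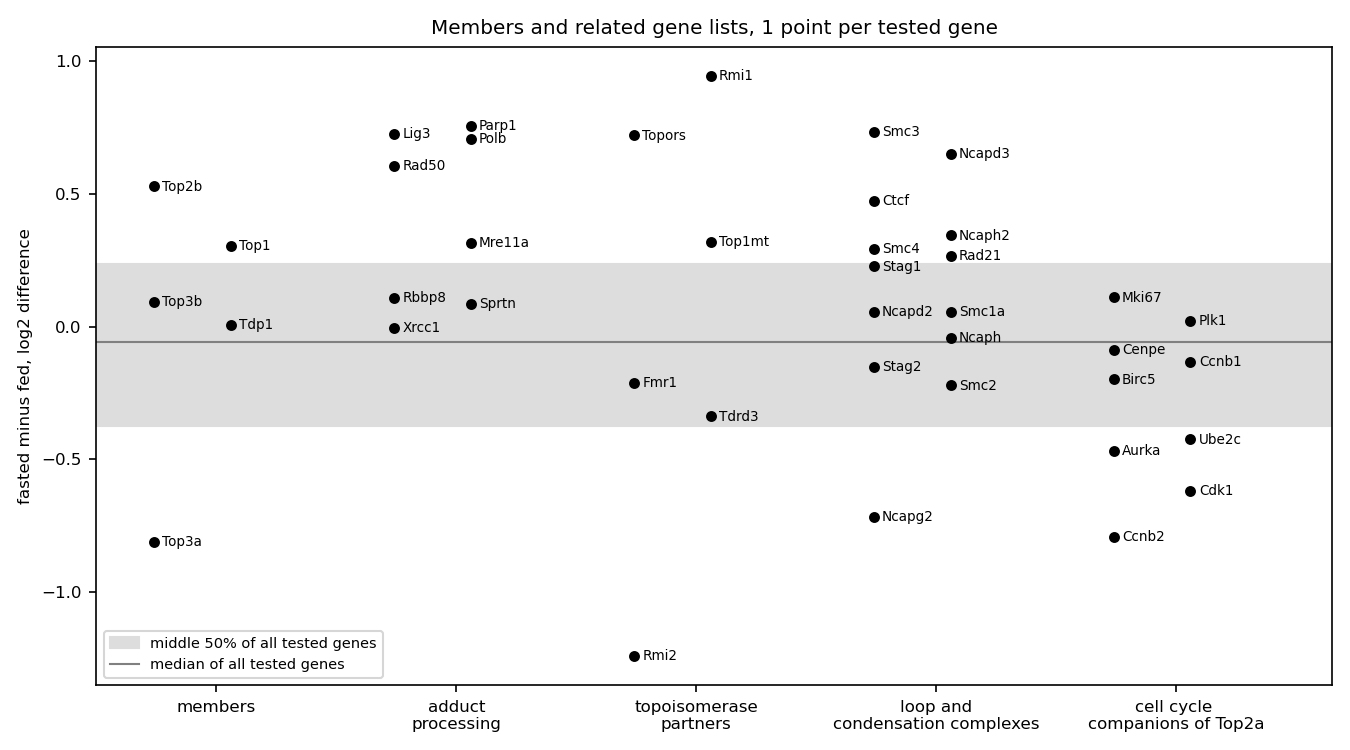
Each point is the fasted minus fed log2 difference of 1 tested gene, grouped into the members and the 4 related lists, over the median and the middle 50% of all tested genes (line and band), and 1 adduct processing gene is not drawn. The adduct processing genes have a median of 0.49 and the cell cycle genes a median of -0.20, the median of all genes is -0.06, and no gene shown passed the test.

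For each measured member the 3 genes with the most similar profile over the 8 arrays were taken by the root mean square difference between mean-centred log2 values, among 13518 genes with usable symbols. For Top1 these were Hprt (0.0593), Grpel1 (0.0604) and Cmas (0.0724). For Top2b they were Mfsd13a (0.0797), Fez2 (0.0903) and Ankrd16 (0.0936). For Top3a, whose values spread most over the arrays (SD 0.635), they were Ndn (0.121), Nagpa (0.167) and Slc24a2 (0.174). The distances are not scaled to that spread, so their sizes are not comparable between members. For Top3b they were Asxl1 (0.0577), Cyb5r4 (0.0864) and Ttc33 (0.0904), and for Tdp1 Ctdsp1 (0.0579), Olfr1443 (0.0604) and Fam118a (0.0822). With 8 arrays and so many genes searched, close profiles are a description of these arrays only.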

How the data were processed

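Lower jejunal crypts were laser-captured, and their Cy5-labelled cDNA was put on Agilent mouse arrays, per the labels' protocols. The authors' scanner files hold, per the file headers, spot intensities written by Agilent Feature Extraction 11.5.1.1, and their deposited matrix holds log2 values whose scaling and centring stay unknown. Its column medians ran from 7.73 to 8.33. Probe positions are in mm9, per the file headers.

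Control and outlier spots were left out and spots of a probe averaged. A total of 27655 probes were named by accession through a RefSeq table of assembly GRCm38.p6 and 11774 kept the file's name. No probe was saturated and 0 of 28 array pairs held identical values. Log2 processed signals, scaled by subtracting the 75th percentile of their array, were fitted on group and labelled sex with limma 3.58.1 (lmFit, eBayes with a mean trend) under R 4.3.3, over 24459 probes and over the brightest kept probe of 19528 genes, with a Benjamini-Hochberg threshold of 0.05. The fit was tested on simulated data with the genes' own spread. It recovered 10.8% of changes of 1 log2 unit, 52.8% of 2, 71.2% of 3 and 82% of 4. Member differences near 1 log2 unit or smaller would thus mostly be missed. P-values measure the spread between arrays of different mice, and the number of arrays limits their precision. The main fit held no slide term, so that spread also holds differences between slides. Named were all members, the 3 genes of each list with the smallest p, and 3 genes nearest in profile. Some results that this rule takes are not reported here. Members and lists were chosen with earlier results of these data known. Alternatives covered scaling, background correction, filters, covariates, blocks, array weights and arrays left out, and the absence of scaling was added after seeing the data.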

Additional observations from a re-analysis of the deposited data

Results flagged for a closer look

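In 3 of the 22 groups of 4 arrays checked, 1 array lay far from the other 3 by Dixon's ratio, the gap to the nearest value over the whole range, above its critical value. Chance alone flags about 5% of such groups.

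For the Top3a probe A_55_P1953578 fasted replicate 4 was at 3.29 on the log2 scale, against 2.40 to 2.51 on the other fasted arrays (ratio 0.876). For the Tdp1 probe A_66_P104046 fed replicate 1 was at -4.93, against -2.25 to -1.80 on the other fed arrays (ratio 0.857), and the probe was not well above background there. For the Tdp2 probe fasted replicate 3 was at -3.51, against -5.72 to -5.63 on the other fasted arrays (ratio 0.959), and the probe was not well above background on any of them.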

How the results depend on the processing

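No member was called as different between fasted and fed crypts under any alternative run. The counts of called genes and of called probes were 0 in 25 of 25 and in 24 of 24 alternatives by limma, with 478 to 5491 genes and 650 to 6593 probes at an unadjusted p under 0.05 and a smallest adjusted p of 0.0654 and 0.0687. The replicate number as a block called 0 genes, with 1114 at an unadjusted p under 0.05. Arrays of the same number correlated at 0.372, -0.469, -0.446 and 0.606 in their deviations from the group means, so the numbers did not pair the arrays, and 4 of 8 correlated best with their own number. Arrays that shared a slide correlated at 0.372, 0.536 and 0.606. With the slide as a random block, at a correlation of 0.70, limma called 0 genes, with 3075 at an unadjusted p under 0.05. Top3a was then at -0.84 and Top2b at 0.49, with a limma adjusted p of 0.235 and 0.255. For the other measured members the limma adjusted p was 0.614 or more.

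Top2b ran from 0.28 to 0.77 and never reversed. Top3a turned to 0.10 with the mean of its kept probes and otherwise ran from -1.08 to -0.41. Top1 turned to -0.054 without fasted replicate 3 and fed replicate 4, and ran from -0.033 to 0.48 with 1 array left out. Tdp1 turned to -0.059 in the authors' matrix and to -0.090 with each array's share of detected probes as a covariate, was at 0.20 without both named arrays, and ran from -0.092 to 0.15 with 1 array left out. Top3b turned to -0.052 with the mean of its kept probes, to -0.0014 (probe -0.0043) with array weights and to -0.29 without both named arrays, and ran from -0.16 to 0.29 with 1 array left out. Its probe A_55_P1959753 turned to 0.059 with the slide as a fixed block, to 0.12 without both named arrays and to 0.042 without scaling, and ran from -0.46 to 0.15 with 1 array left out. The causes were not tested. Over all settings the list medians ran from 0.19 to 0.73 for adduct processing and from 0.04 to 0.47 for the loop and condensation complexes, and changed sign for the partners (-0.28 to 0.30) and the cell cycle genes (-0.48 to 0.11).

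The interaction with labelled sex called 0 of 19488 genes, with 625 at an unadjusted p under 0.05 by limma. Without fasted replicate 4 it called 2224 genes and without fed replicate 2 it called 1 (the members' own interaction was not recomputed there), so the range with 1 array left out was 0 to 2224. The median interaction over all genes was 0.04, and median scaling moved it to -0.43.

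Limits: 4 mice a group, no untreated array, 2 members below detection, genes with probes that disagree, 1 array that stands apart, 1 sex label contradicted, and marker levels of other cell types that moved with feeding.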
